A study of Mus musculus with 12 samples.

Results

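Immediate early genes are genes that cells transcribe within minutes of a stimulus without first making new protein, and that fall silent again soon after. The 10 described here were chosen by name: the AP-1 subunits *Fos*, *Fosb*, *Jun* and *Junb*, the transcription factors *Atf3*, *Egr1* and *Nr4a1*, the mRNA decay factor *Zfp36*, and *Ier2* and *Ier3*. All 10 were among the 14244 gene rows of the deposited table, and all 10 passed the filter on low values, a mean of at least 10 over the libraries. They were measured by poly(A) RNA sequencing of gut epithelial cells from 5 wild type (WT) and 7 Chd8L+/- mice. The mice were C57BL/6 male littermates, 8 weeks old, and each gave 1 library. Chd8L+/- mice carry 1 deleted copy of the long isoform of *Chd8*, a chromatin remodeller linked to autism, in the whole body, so the epithelium and every other tissue of these mice carried the allele. The cells were released on ice with a chelating solution and vortexing and were not sorted, and the labels do not say from which stretch of the gut they came.

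On a stimulus, signals through the ERK, p38 and JNK kinases reach transcription factors that already sit on the promoters of these genes at rest. Such factors include SRF with its ETS-family partners at CArG boxes and CREB at cyclic AMP response elements. The FOS and JUN proteins then pair to form AP-1, which binds its own sites across the genome, while ZFP36 binds AU-rich elements and speeds the decay of mRNAs, including those of inflammation. In the gut epithelium these genes respond to growth factors, microbes, injury and wound repair, and they are known to be switched on by the dissociation of tissue into cells.

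Promoters are shown for *Fos*, *Zfp36* and *Atf3*, 3 members whose levels varied together across the mice (Pearson's r of 0.82 to 0.92 between them). They are not the closest members, as *Junb* and *Zfp36* had an r of 0.95 and *Jun* and *Atf3* an r of 0.94. Each sequence is the 100 bases upstream of the transcription start given by RefSeq (GRCm38.p6), written 5′ to 3′ on the strand of the gene. *Fos* is at chr12:85473790-85473889 (plus strand), *Zfp36* at chr7:28379229-28379328 (minus strand) and *Atf3* at chr1:191183334-191183433 (minus strand). For *Zfp36* and *Atf3* this start lies inside the gene span given below, whose 5′ ends are at 28380253 and 191218039. Motif positions are counted from the RefSeq start, not from the 5′ end of the span. Capitals mark matches on either strand to the motifs searched: the CArG box, TGACGT (the core of the cyclic AMP response element), TGANTCA (the AP-1 site), TATAAA and GGAAGT (an ETS core).
Fos: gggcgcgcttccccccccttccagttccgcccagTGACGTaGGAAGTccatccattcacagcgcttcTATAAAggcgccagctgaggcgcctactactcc
Zfp36: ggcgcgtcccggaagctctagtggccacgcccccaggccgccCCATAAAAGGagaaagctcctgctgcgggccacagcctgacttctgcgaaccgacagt
Atf3: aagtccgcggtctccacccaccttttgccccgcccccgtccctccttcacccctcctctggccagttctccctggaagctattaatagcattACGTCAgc
The *Fos* promoter held TGACGT with its first base at -66, GGAAGT at -59 and TATAAA at -33, *Zfp36* held the CArG box CCATAAAAGG at -58, and *Atf3* held TGACGT on the other strand at -8. In windows of 300 bases, 250 before and 50 after the start, a CArG box stood in 1.63% of 32851 promoters, TGACGT in 7.51%, TGANTCA in 7.81%, TATAAA in 13.6% and GGAAGT in 23.8%. Of the 8 members matched by symbol (all but *Egr1* and *Ier2*), 1 held a CArG box, 2 held TGACGT (*Fos* and *Atf3*), 2 held TATAAA and 2 held GGAAGT (*Fos* and *Junb* for both), and 0 held TGANTCA. Bases outside these windows were not searched, so a member without a match may hold the motif elsewhere. The motifs do not overlap each other in the bases shown. A match is a description of the letters, not evidence of binding, and the motifs and the promoters shown were chosen with the sequences and earlier results in view.

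Library totals ran from 15691662 to 20761315 reads on genes. *Chd8* RNA over the whole gene was 953 ± 85.5 normalized counts in WT (SD, n = 5) and 1297 ± 123 in Chd8L+/- mice (SD, n = 7), which does not read the deleted exons apart from the rest. On the first principal component of all tested genes, with 39.7% of the variance, WT replicate 2 lay at 41.0, within the Chd8L+/- libraries (0.26 to 42.7), with the remaining WT libraries at -67.5 to -26.2. Its *Chd8* level, 1050.2 normalized counts, was the highest of WT and below all 7 Chd8L+/- libraries, and its *Hspa1a* level, 830.0, was the highest of all 12 libraries. Whether its label is right, or whether it came from another stretch of gut, was not tested. Genotype differences are therefore given with and without WT replicate 2, a choice made after the data were seen. Leaving out a WT library for lying among the Chd8L+/- libraries favours wider differences and smaller p-values. Over all genes, calls went from 3 to 3533, so the values without that library are a description and not a separate test. All 7 epithelial markers were detected, and their summed level was 142072 to 242384 in WT and 140735 to 228390.0 in Chd8L+/- libraries. Markers of other cells were present at lower levels, with T cell markers at a sum of 908 to 1873 in WT and 933 to 2061 in Chd8L+/-, and B cell markers at 56.4 to 1105 and 45.0 to 1238. All 8 myeloid markers had a higher mean log2 level in Chd8L+/- (summed 1258 to 3291 and 1852 to 3947), as did the 4 tested of 6 fibroblast markers (8.00 to 307 and 33.7 to 1220) and all 4 smooth muscle markers (82.7 to 224 and 68.3 to 1822), while the 4 endothelial markers summed to 47.6 to 112 and 44.0 to 120.5. All 4 markers of tuft cells were lower (1211 to 10759 and 748 to 4619) and all 4 of dividing cells higher (1081 to 6893 and 4060.1 to 8024). None of these markers passed the threshold with all 12 libraries. Without WT replicate 2, all 4 tuft cell markers passed as lower and all 4 of dividing cells as higher, as did 2 of 8 myeloid markers (*Lyz2* and *Itgam*) and 3 of the 4 tested fibroblast markers (*Col1a1*, *Col1a2* and *Col3a1*) as higher, and of the epithelial markers *Krt18* as lower and *Krt19* as higher. In that fit 13.6% of all genes passed as lower and 14.0% as higher. Markers of other cells thus moved in the same fit that called members of the group. Their part in the values of the immediate early genes was not tested. In bulk samples such as these, fewer cells of a type and less RNA per cell cannot be told apart.

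None of the 10 genes passed the threshold between the genotypes (limma on log2(normalized count + 1), Benjamini-Hochberg adjusted p of 0.05 or less over 12808 genes), beside 0.0234% of all genes tested. EdgeR and DESeq2 on the recovered reads also called 0 of the 10, beside 0.039% and 6.44% of genes. With no adjustment (p of 0.05 or less), 2 of the 10 were lower in Chd8L+/- mice, *Fos* and *Zfp36*, beside 11.8% of all genes. The log2 difference (Chd8L+/- minus WT) was below 0 for 9 of the 10 genes, beside 48.6% of all genes, with a median of -0.41 beside 0.01 for all genes. The members vary together, as shown further on, so their shared sign is not 9 separate observations. For none of the 10 genes did the genotypes fail to overlap, beside 0.515% of all genes in either direction. Without WT replicate 2, 3 of the 10 passed the threshold as lower in Chd8L+/- mice, *Fos*, *Junb* and *Zfp36*, beside 13.6% of all genes. EdgeR and DESeq2 without that library called the same 3 genes, beside 12.3% and 13.9% of genes.

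**Figure D1:**
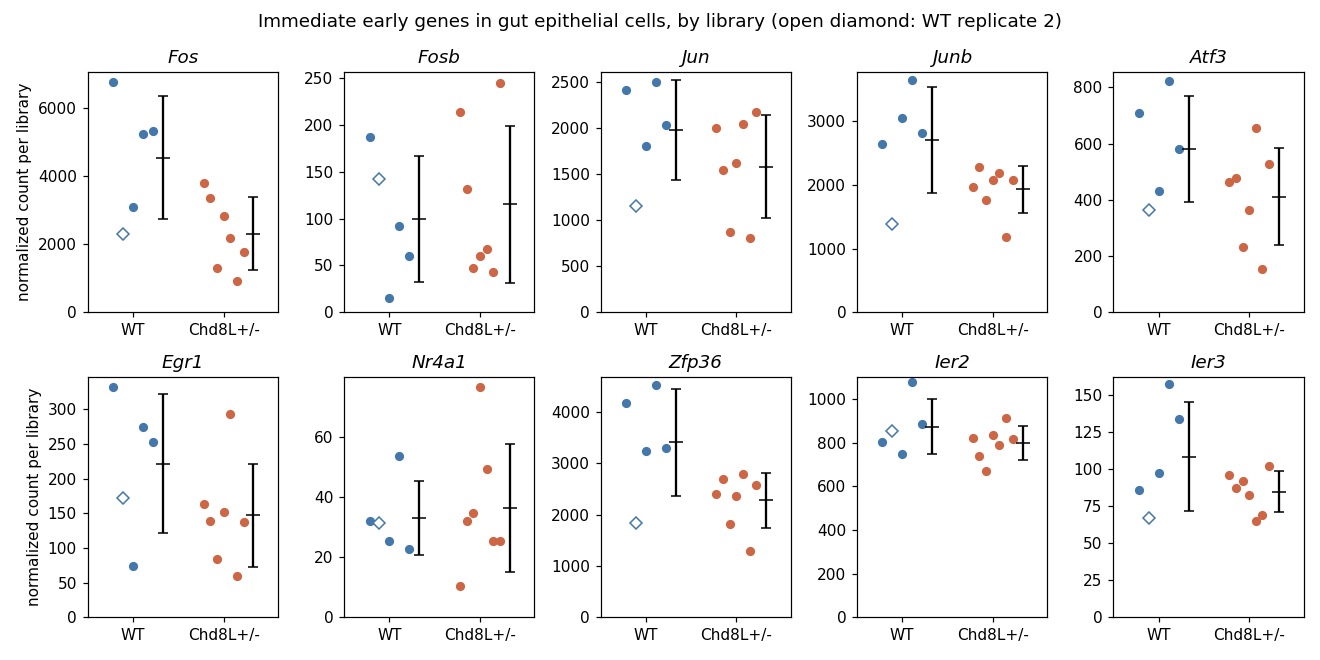
Normalized counts of each of the 10 genes in every library, with WT (n = 5) and Chd8L+/- (n = 7) side by side. Each point is 1 mouse, the open diamond is WT replicate 2, and the dash and bars give the mean ± SD. The genotypes overlap for every gene, and *Ier2* has the smallest ratio between its highest and lowest libraries.

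Of the AP-1 subunits, *Fos* had the largest difference in mean between genotypes. *Fos* (ENSMUSG00000021250; chromosome 12, 85473890 to 85477273, plus strand, GRCm38) stood at 6785, 2295, 3107, 5238 and 5333 normalized counts in WT replicates 1 to 5. In Chd8L+/- mice it ranged from 920.4 to 3815, with a median of 2194. WT replicate 2 was the lowest WT library, all 7 Chd8L+/- libraries were below the WT median, and 4 of them were below the lowest WT library. The means were 4552 ± 1820 (SD, n = 5) and 2310 ± 1069 (SD, n = 7), a log2 difference of -1.02 (SE 0.36, 95% interval -1.79 to -0.26), with a limma adjusted p of 0.130 and a two-sided exact permutation p of 0.0341 over all 792 splits, unadjusted, which became 0.211 when adjusted over all genes tested. Without WT replicate 2 the difference was -1.24, with a limma adjusted p of 0.0215.

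*Junb* (ENSMUSG00000052837; chromosome 8, 84974484 to 84978718, minus strand), a JUN protein that can act against JUN, stood at 2639.9, 1379, 3058, 3654 and 2816 normalized counts in the WT replicates. In Chd8L+/- mice it ranged from 1179.9 to 2280.3, with a median of 2077. WT replicate 2 lay among the Chd8L+/- libraries, and the other 4 WT libraries were above all 7 of them. The log2 difference was -0.44 (SE 0.22, 95% interval -0.92 to 0.03; limma adjusted p = 0.232; unadjusted exact permutation p = 0.106, adjusted 0.300) with all libraries and -0.67 (limma adjusted p = 0.0129) without WT replicate 2. Exons of *Junb* share 173 bases with *Prdx2* on the opposite strand, and the use of strand in counting is not given in the sources used here. *Prdx2* stood at 3189 ± 633 in WT (SD, n = 5) and 2444 ± 452 in Chd8L+/- libraries (SD, n = 7), and reads of the 2 genes over the shared bases cannot be told apart.

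*Jun* (ENSMUSG00000052684; chromosome 4, 95049034 to 95052222, minus strand), the main partner of FOS, stood at 2418, 1152, 1806, 2500.3 and 2029 normalized counts in the WT replicates and ranged from 810.3 to 2179, with a median of 1622, in Chd8L+/- mice. The genotypes overlapped over most of their range. Its log2 difference was -0.37 (SE 0.28, 95% interval -0.96 to 0.23; limma adjusted p = 0.420), so the interval holds both 0 and a difference as large as that of *Junb*. *Fosb* (ENSMUSG00000003545; chromosome 7, 19302696 to 19310051, minus strand), another FOS protein, was the 1 member with a point estimate above 0. It stood at 188, 142, 15.1, 92.2 and 60.2 normalized counts in the WT replicates and ranged from 42.8 to 245, with a median of 67.1, in Chd8L+/- mice. WT replicate 3 was the lowest of all 12 libraries and Chd8L+/- replicate 7 the highest, a ratio of 16.2, and the SD of its log2 values was larger than that of 95.8% of the genes tested. The log2 difference was 0.30 (SE 0.60, 95% interval -0.99 to 1.59; limma adjusted p = 0.785), and without WT replicate 3 it was -0.26, so its sign rested on that library.

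*Atf3* (ENSMUSG00000026628; chromosome 1, 191170296 to 191218039, minus strand), a factor of the stress response that represses many of its targets, stood at 710.2, 365, 432, 822 and 579 normalized counts in the WT replicates and ranged from 155 to 655, with a median of 463, in Chd8L+/- mice. Of the 7 Chd8L+/- libraries, 6 were below the WT median, and the genotypes overlapped. Between the genotypes the log2 difference was -0.57 (SE 0.33, 95% interval -1.28 to 0.13; limma adjusted p = 0.288). *Egr1* (ENSMUSG00000038418; chromosome 18, 34859823 to 34864984, plus strand), a zinc finger factor downstream of ERK, stood at 332, 172, 74.6, 275 and 253 normalized counts in the WT replicates and ranged from 59.2 to 292, with a median of 139.5, in Chd8L+/- mice. Its lowest WT library was replicate 3, not replicate 2. The log2 difference of *Egr1* was -0.58 (SE 0.40, 95% interval -1.43 to 0.28; limma adjusted p = 0.377).

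*Nr4a1* (ENSMUSG00000023034; chromosome 15, 101254269 to 101274795, plus strand), an orphan nuclear receptor, was the lowest of the 10 and rested on 12 to 73 reads per library. It stood at 32.0, 31.5, 25.2, 53.6 and 22.6 normalized counts in the WT replicates and ranged from 10.4 to 76.4, with a median of 32.0, in Chd8L+/- mice. Both the lowest and the highest of the 12 libraries were Chd8L+/-. The log2 difference was -0.01 (SE 0.40, 95% interval -0.87 to 0.85; limma adjusted p = 0.991), an interval too wide to show that the genotypes were alike.

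*Zfp36* (ENSMUSG00000044786; chromosome 7, 28376784 to 28380253, minus strand), also called tristetraprolin, stood at 4185, 1834, 3235, 4521 and 3293 normalized counts in the WT replicates. In Chd8L+/- mice it ranged from 1303 to 2797, with a median of 2398. As for *Junb*, WT replicate 2 lay among the Chd8L+/- libraries and the other 4 WT libraries lay above all of them. The means were 3414 ± 1045 (SD, n = 5) and 2282 ± 536 (SD, n = 7). The log2 difference was -0.56 (SE 0.23, 95% interval -1.06 to -0.06; limma adjusted p = 0.171; unadjusted exact permutation p = 0.0606, adjusted 0.242) with all libraries and -0.77 (limma adjusted p = 0.0147) without WT replicate 2. Without that library the genotypes did not overlap for *Junb* and *Zfp36*, 2 of the 10 genes, beside 7.71% of all genes in that direction. As that library was left out for lying among the Chd8L+/- libraries, this gap is a description and not a test.

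*Ier3* (ENSMUSG00000003541; chromosome 17, 35821684 to 35822923, plus strand), a regulator of cell survival, stood at 86.2, 67.0, 97.8, 158 and 134 normalized counts in the WT replicates and ranged from 65.0 to 102, with a median of 87.1, in Chd8L+/- mice. The WT libraries spread more widely than the Chd8L+/- libraries, with an SD of 36.8 (n = 5) beside 13.7 (n = 7). *Ier3* had a log2 difference of -0.30 (SE 0.22, 95% interval -0.76 to 0.16; limma adjusted p = 0.394). *Ier2* (ENSMUSG00000053560; chromosome 8, 84661331 to 84662852, minus strand), a nuclear protein of early growth responses, stood at 803, 853, 750.1, 1080.0 and 884 normalized counts in the WT replicates and ranged from 669 to 914, with a median of 816, in Chd8L+/- mice. It was the steadiest of the 10, with a ratio of 1.61 between its highest and lowest libraries and an SD of log2 values larger than that of 7.43% of genes. For *Ier2* the log2 difference was -0.13 (SE 0.11, 95% interval -0.37 to 0.12; limma adjusted p = 0.508).

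**Figure D2:**
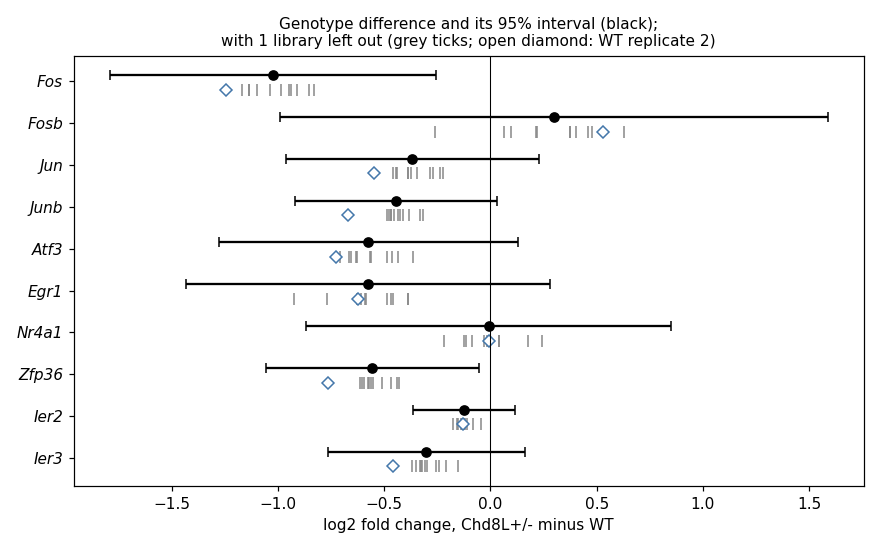
Log2 difference (Chd8L+/- minus WT) of each of the 10 genes from all 12 libraries (black, with bars for the 95% interval). Grey ticks give the difference with single libraries left out, and the open diamond that without WT replicate 2, both without intervals. With all libraries the point estimates run from -1.02 for *Fos* to 0.30 for *Fosb*.

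Per kilobase of exon, a scale on which genes can be compared, *Fos* was the most abundant of the 10 in WT mice at 1935 ± 774 normalized counts per kilobase (SD, n = 5), followed by *Junb* at 1177 ± 364, *Zfp36* at 984 ± 301, *Jun* at 621 ± 170.4 and *Ier2* at 574 ± 82.7. *Atf3* followed at 270.1 ± 88.0, *Ier3* at 96.0 ± 32.5, *Egr1* at 49.4 ± 22.3, *Fosb* at 15.9 ± 10.8 and *Nr4a1* at 9.39 ± 3.48. The WT ranges of neighbours in this order overlapped, except those of *Ier2* and *Atf3* and of *Atf3* and *Ier3*. In Chd8L+/- mice *Fos* had a mean of 982 ± 455 per kilobase (SD, n = 7) and *Junb* 840.4 ± 161, and *Fos* was above *Junb* in 3 of 7 libraries, where it had been above in 4 of 5 WT libraries. Exon lengths are those of GENCODE M21, in which 232 bases of *Jun* exons and 125 of *Zfp36* exons are shared with the opposite-strand genes *Junos* and *Gm44710*, which were not analysed here.

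Single mice stood high or low for many of these genes at once. The genes were each scaled to a z-score over the 12 libraries and averaged. WT replicate 4 had the highest mean z-score, 1.32, with 10 of 10 genes above their own mean and the highest value of all 12 libraries for 6 genes. Chd8L+/- replicate 6 had the lowest, -1.30, with 1 of 10 genes above its mean and the lowest value of all libraries for 6 genes, *Fos*, *Jun*, *Junb*, *Egr1*, *Atf3* and *Zfp36*. The exception was *Ier2*, for which that mouse was the highest Chd8L+/- library at 914 normalized counts. Within WT, replicates 1 and 5 stood at 0.74 and 0.55, and replicates 2 and 3 at -0.41 and -0.23. Replicate 2 was the lowest WT library for 6 of the genes. Among Chd8L+/- mice, replicate 3 stood at -0.93, and replicates 1, 2, 4, 5 and 7 lay between -0.02 and 0.14.

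**Figure D3:**
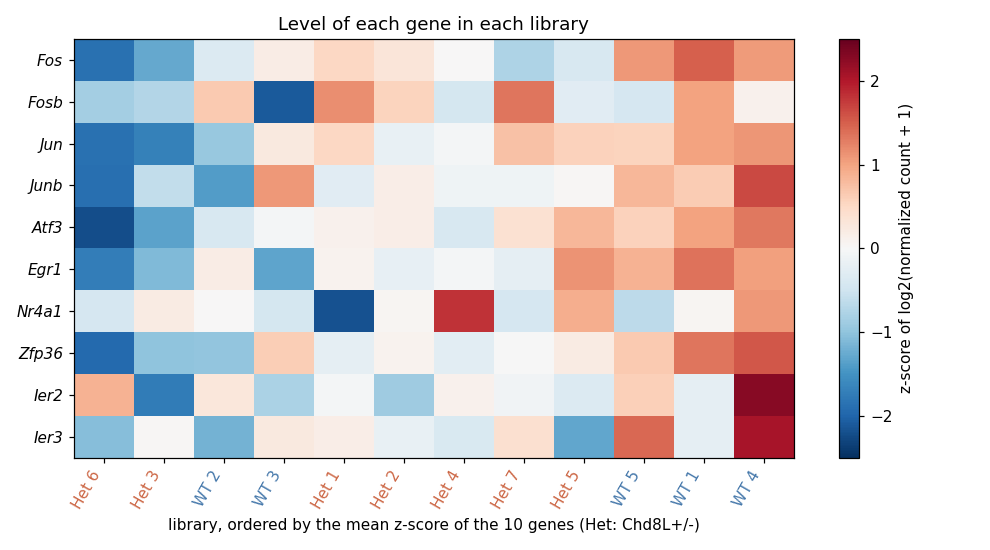
Z-score of each of the 10 genes (rows) in each library (columns), on log2(normalized count + 1) scaled over the 12 libraries, where Het stands for Chd8L+/-. WT replicate 4 is above the mean for all 10 genes, and Chd8L+/- replicate 6 is above it for 1.

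All 45 pairs among the 10 genes were correlated over the 12 libraries, with permutation p-values adjusted over the 45 (Benjamini-Hochberg). Pearson's r ran from -0.23 to 0.95, with a median of 0.39, and 15 pairs had an adjusted p of 0.05 or less. *Junb* and *Zfp36* were the closest pair (r = 0.95 and Spearman's rho = 0.95, adjusted permutation p = 0.00045 for each), and r was 0.88 without the 2 libraries farthest from the median of *Junb*. *Jun* and *Atf3* followed (r = 0.94, adjusted permutation p = 0.00045; rho = 0.92, adjusted permutation p = 0.00202; r = 0.84 without 2 libraries). *Fos* and *Zfp36* had an r of 0.87 and a rho of 0.79 (adjusted permutation p = 0.00285 and 0.0307; r = 0.74 without 2 libraries). *Fos* and *Fosb* did not pass (r = 0.27 and rho = 0.31, adjusted permutation p = 0.625 and 0.578), and their r was -0.02 without 2 libraries.

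*Fos*, *Jun*, *Junb*, *Egr1*, *Atf3* and *Zfp36*, a group picked after the values were seen, had r between 0.50 and 0.95 over their 15 pairs, with a median of 0.80. With each genotype centred on its own mean the median was 0.77, with a range of 0.40 to 0.94, so most of these pairs also varied together with the genotype difference taken out. Among these 15 pairs the largest falls in r without 2 libraries were in pairs with *Egr1*. Each pair lost the 2 libraries farthest from the median of its first-named gene, so the libraries lost can differ between pairs. *Egr1* and *Atf3* fell less, from 0.85 to 0.75, and *Junb* and *Atf3*, a pair without *Egr1*, fell from 0.80 to 0.55. *Junb* and *Egr1* did not pass (r = 0.50, adjusted permutation p = 0.213), and without 2 libraries r fell from 0.50 to 0.10 for that pair, from 0.70 to 0.43 for *Egr1* and *Zfp36* and from 0.74 to 0.45 for *Jun* and *Egr1*. The other genes were less alike, with r of -0.23 to 0.51 for pairs with *Fosb*, -0.23 to 0.23 with *Nr4a1*, 0.14 to 0.42 with *Ier2* and -0.08 to 0.74 with *Ier3*. The libraries share their preparation, so each r describes these 12 libraries.

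**Figure D4:**
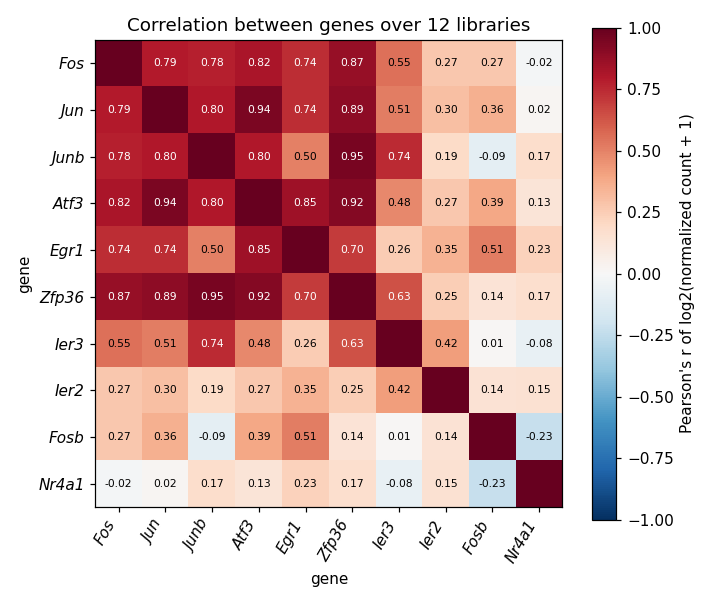
Pearson's r between each pair of the 10 genes over the 12 libraries, on log2(normalized count + 1). *Fos*, *Jun*, *Junb*, *Egr1*, *Atf3* and *Zfp36* have r of 0.50 or more with each other, and *Nr4a1* has none above 0.23.

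Outside the 10 genes, the 5 whose pattern over the 12 libraries was most like their mean z-score were *Pmepa1* (r = 0.91), *Appl1* (0.90), *Maff* (0.90), *Smad7* (0.89) and *Ssh1* (0.89), given as a description. *Maff* encodes a small MAF protein and is itself an immediate early gene, and *Pmepa1* and *Smad7* encode inhibitors of TGF-beta signalling. *Maff* stood at 522 ± 169 normalized counts in WT (SD, n = 5) and 299 ± 76.0 in Chd8L+/- mice (SD, n = 7), and *Pmepa1* at 961 ± 386 and 577 ± 229. For single genes the most alike was *Plk3* for *Fos* (r = 0.95), *Ccdc68* for *Junb* (0.98), *Maff* for *Zfp36* (0.96), *Ssh1* for *Egr1* (0.90) and *Rab20* for *Ier3* (0.91). *Jun* and *Atf3* were each other's most alike gene among the genes tested, with date-like and repeated names left out. *Fosb*, *Ier2* and *Nr4a1* were closest to *Cyp2b13* (0.86), *Pgp* (0.86) and *Pygm* (0.87), none of them an immediate early gene. Each of these values is the highest r found among all genes tested. How high an r unrelated genes would reach by chance in such a search was not tested.

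Of 33 other immediate early genes listed, 28 were tested, and 21 had a log2 difference below 0 and 7 above, with a median of -0.34. None passed the threshold, while 9 lower and 2 higher had an unadjusted p of 0.05 or less (11.8% and 12.5% of all genes). The lowest were *Plk2*, at 289.6 ± 146 normalized counts in WT (SD, n = 5) and 147 ± 75.5 in Chd8L+/- mice (SD, n = 7), and *Plk3*, at 421 ± 144 and 240.3 ± 104, both stress-responsive polo-like kinases. Their log2 differences were -0.93 (SE 0.45) and -0.87 (SE 0.33), with limma adjusted p of 0.215 and 0.148. The highest were *Zfp36l1*, a paralog of *Zfp36*, at 0.45 (SE 0.14, limma adjusted p = 0.121) and *Cyr61*, a matrix protein gene, at 0.43 (SE 0.34, limma adjusted p = 0.433). *Zfp36l2*, the other paralog, picked after its values were seen, stood at 1782 ± 461 in WT (SD, n = 5) and 2306 ± 480.3 in Chd8L+/- mice (SD, n = 7). The mRNA decay factors of 1 family thus had point estimates on both sides of 0, none of them past the threshold with all libraries. Without WT replicate 2, 11 genes of this list passed as lower and 2 as higher, *Zfp36l1* and *Zfp36l2*, beside 13.6% and 14.0% of all genes.

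Of the other AP-1 subunits, 7 of 9 listed were tested, with 5 below 0, 2 above and a median of -0.26. None passed the threshold or had an unadjusted p of 0.05 or less. *Fosl2*, a FOS family member without a strong activation domain, stood at 5843 ± 1899 normalized counts in WT (SD, n = 5) and 3987 ± 1268 in Chd8L+/- mice (SD, n = 7), a log2 difference of -0.55 (SE 0.26, limma adjusted p = 0.219). *Jdp2* had a difference of -0.47, and *Fosl1* and *Batf*, both low, of 0.47 and 0.43. With WT replicate 2 left out, 2 passed as lower, *Fosl2* (limma adjusted p = 0.0321) and *Batf2* (limma adjusted p = 0.0486), beside 13.6% of all genes. Of the regulators upstream of these genes, 18 of 21 listed were tested, 9 below 0 and 9 above, with a median of -0.0028. Of these, 0 passed the threshold. An unadjusted p of 0.05 or less was held by 2 lower and 2 higher, beside 11.8% and 12.5% of all genes. The lowest were the kinases of the ERK cascade *Map2k2*, at -0.50 (SE 0.20, limma adjusted p = 0.160), and *Mapk3*, at -0.42 (SE 0.17, limma adjusted p = 0.159). The highest were the SRF coactivator *Mkl2*, at 0.57 (SE 0.15, limma adjusted p = 0.121), and the JNK-activating kinase *Map2k7*, at 0.27 (SE 0.12, limma adjusted p = 0.197). With that library left out, 3 passed as lower, beside 13.6% of all genes: *Map2k2*, *Mapk3* and *Map2k1* (limma adjusted p = 0.0113, 0.0150 and 0.0221). Another 2 passed as higher, beside 14.0% of all genes: *Mkl2* and *Map2k7* (limma adjusted p = 0.00423 and 0.0480).

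Heat shock genes, which answer to misfolded protein, were split, with 4 of 8 tested below 0 and 4 above. Of these, 2 passed the threshold and were lower in Chd8L+/- mice, *Hspa1a* at -2.18 and *Hspa1b* at -2.13 (limma adjusted p = 0.0375 for each), which are near-identical genes whose reads can be split uncertainly. *Hspa1a* stood at 498, 830.0, 194, 281 and 252 normalized counts in the WT replicates and between 52.8 and 108 in Chd8L+/- mice. WT replicate 2 was thus the highest library for *Hspa1a* and the lowest WT library for *Fos*, *Jun*, *Junb*, *Atf3*, *Ier3* and *Zfp36*. The r of *Hspa1a* with the mean z-score of the 10 genes was 0.45, which ranked 2608 among the genes tested, with date-like and repeated names left out. *Hspd1* and *Hspe1*, the mitochondrial chaperonins, had the highest differences of the list, 0.71 and 0.55, with limma adjusted p of 0.200 and 0.346. When WT replicate 2 was left out, *Hspa1a*, *Hspa1b* and *Dnajb1* passed as lower (limma adjusted p = 0.00256, 0.00258 and 0.00967), beside 13.6% of all genes. *Hspd1* passed as higher, at 1.02 (limma adjusted p = 0.0162), beside 14.0% of all genes.

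The libraries carry names of a letter and a number, and the sources used here do not say what either stands for. Both genotypes were present under 4 of the numbers, 2, 3, 20 and 22, and number 30 held Chd8L+/- mice alone. Numbers 2 and 20 held 1 mouse of each genotype. Number 3 held 2 WT mice, with WT replicate 2 among them, and 1 Chd8L+/- mouse, and number 22 held 1 WT and 2 Chd8L+/- mice. Each difference within a number thus rests on 1 or 2 mice per genotype and is a description. Within the 4 numbers the log2 difference was below 0 in 4 of 4 for *Junb* (-0.56 to -0.19) and *Zfp36* (-0.63 to -0.21). For *Fos* it was below 0 in 3 of 4, at -1.02, 0.14, -0.50 and -1.81, for *Egr1* in 3 of 4, from -1.25 to 1.96, and for *Fosb* in 1 of 4, from -0.51 to 2.08. With the number as a block in the fit, 0 of the 10 genes and 0 of all genes passed the threshold. With the same block and without WT replicate 2, limma adjusted p was 0.0682 for *Fos*, 0.0676 for *Junb* and 0.0701 for *Zfp36*, and 0 of the 10 passed, beside 17.7% of all genes.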

How the data were processed

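Poly(A) RNA of gut epithelial cells from 5 WT and 7 Chd8L+/- mice was sequenced as single-end reads. Mapping by the authors was to mm10 with Tophat2, and per the labels DESeq2 was used. What the authors deposited is a signal, the reads counted per gene divided by each library's size factor (normalized counts). The counter, its annotation and use of strand are not given in the sources used here. Values of each library were whole multiples of what 1 read was worth (100% of values within 0.001 of a whole number), so reads were recovered, with totals of 15691662 to 20761315. Genes with few reads have the largest counting error.

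Genes with a mean of at least 10 (12808 of 14244) were tested on log2(value + 1) with limma 3.58.1 in R 4.3.3 (lmFit, eBayes with trend) over all 12 libraries, with Benjamini-Hochberg adjustment and a threshold of 0.05. Fold changes on this scale understate changes of low genes. Single genes were also compared by a two-sided exact permutation test over 792 splits, with 0.00126 as the smallest p it can give. Correlations used 100000 resamples. Alternatives included DESeq2 1.42.0 and edgeR 4.0.16, both fitted to recovered reads. The steps were tested on simulated data. Groups came from the labels. Each library is 1 mouse.

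The 10 genes and all lists were chosen with earlier results of these data known. Named beside them are genes past the threshold or, where a list has none, the 2 lowest and 2 highest log2 differences, the 5 genes most like the mean z-score and the 1 most like each member. For the heat shock list, genes past the threshold and the highest 2 are given. Positions are from GENCODE M21 on GRCm38, and promoters from RefSeq on GRCm38.p6. These may differ from the authors' annotation. Spreadsheet dates replaced 21 gene names and 2 names were repeated, and none of these is used here.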

Additional observations from a re-analysis of the deposited data

Results flagged for a closer look

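Each genotype of each of the 10 genes, 20 groups in all, was searched for a library far from the others by Dixon's criterion, which chance alone meets in about 1 group of 20. In 1 group it was met. *Junb* in Chd8L+/- replicate 6 stood at 10.21 on the log2(normalized count + 1) scale, or 1179.9 normalized counts, and the nearest other Chd8L+/- library at 10.79, a gap of 0.61 of the range of the 7 libraries. The same library was the lowest of all 12 for 6 of the 10 genes.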

How the results depend on the processing

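The log2 differences of the 10 genes, their median and the counts of genes past the threshold were recomputed under 23 alternatives and 3 added after the data were seen. Correlations, z-scores, levels per kilobase and lists were not. The log2 difference stayed below 0 under 26 of 26 for *Fos*, *Jun*, *Junb*, *Egr1*, *Atf3*, *Ier2*, *Ier3* and *Zfp36*. WT replicate 2 decided the calls: without it *Fos*, *Junb* and *Zfp36* passed the threshold in limma, and also in edgeR (adjusted p = 0.0276, 0.0156 and 0.0177) and DESeq2 (adjusted p = 0.00505, 0.00203 and 0.00256), 3 of the 10 genes in each, and under none of the other alternatives. Over the 26, adjusted p ran from 0.00505 to 0.343 for *Fos*, 0.00203 to 0.485 for *Junb* and 0.00256 to 0.400 for *Zfp36*. Leaving out each library in turn gave 0 to 3 of the 10 genes and 0 to 3533 of all genes past the threshold, beside 3 with all libraries, and a median over the 10 of -0.59 to -0.29. Of all genes, edgeR called 5, DESeq2 811, the letter of the library name as a block 451 and the number as a block 0. Without WT replicate 2, edgeR called 3369, DESeq2 4112 and the number block 2262. The cause of these differences was not tested.

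Replicate numbers are shared by the genotypes, but same-numbered libraries did not deviate together (r of -0.34 to 0.19 over 5 pairs), and 1 of 5 WT libraries was most like the Chd8L+/- library of its own number. With the replicate block, in which Chd8L+/- replicates 6 and 7 have no partner and add nothing to the difference, 0 of all genes and 0 of the 10 passed, and the median of the 10 was -0.32. *Nr4a1*, at -0.01, turned above 0 at a pseudocount of 5 (0.0096), with TMM factors (0.0040), edgeR (0.15), DESeq2 (0.13), the replicate block (0.10), the letter block (0.33), edgeR and DESeq2 without WT replicate 2 (0.14 and 0.11), and with single libraries left out (-0.22 to 0.24). *Fosb* turned below 0 without WT replicate 3 (-0.26), with 0.63 the highest value when single libraries were left out. With 12 to 73 reads per library, *Nr4a1* is limited by depth.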

Other observations

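Per kilobase of exon, the level of *Fosb* as a share of that of *Fos* was 1.04%, 2.33%, 0.183%, 0.663% and 0.425% in WT replicates 1 to 5. It ranged from 0.797% to 5.25% in Chd8L+/- mice, with the highest value in replicate 7. All 7 Chd8L+/- libraries were above WT replicates 3, 4 and 5, and the genotypes overlapped through WT replicates 1 and 2. The ratio was picked after the values were seen and is given without a test.

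The 3 *Gadd45* genes, growth arrest and DNA damage genes from the list of other immediate early genes, were picked after their values were seen. *Gadd45a* stood at 1351 ± 309 normalized counts in WT (SD, n = 5) and 781 ± 144 in Chd8L+/- mice (SD, n = 7), *Gadd45b* at 187 ± 28.0 and 121 ± 37.2, and *Gadd45g* at 574 ± 232 and 303 ± 91.2. Their log2 differences were -0.78, -0.66 and -0.87, with limma adjusted p of 0.121, 0.122 and 0.121 with all libraries. Without WT replicate 2 the limma adjusted p was 0.00295, 0.0236 and 0.00604, in a fit where 13.6% of all genes passed as lower.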
